A study of Homo sapiens with 10 samples.

Results

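The chromatin around 43 nuclear receptor genes was followed through the loss of the transcription factor GATA6 in DLD-1, an established human colorectal adenocarcinoma line. The receptors were a list of gene symbols, and each was given the peaks that lay in its RefSeq gene body or in the 50 kb beside either end. All 43 were found among 19974 protein-coding genes, and their windows covered 10.0 Mb. ATAC-seq reads open chromatin through a transposase that cuts accessible DNA and tags it for sequencing. It was run on 50000 viable cells per library, and each library came with its own list of peaks. The 10 libraries formed 5 groups of 2. Cells of the genotype GATA6-AID-IAA7, in which GATA6 carries a degron that auxin (IAA, 500 µM) uses to mark the protein for destruction, gave 3 groups. These were AID_ctrl (labelled +Auxin with a time of 0 h and titled as control, read here as untreated), AID_aux (12 h of auxin) and AID_wash (labelled Wash, time 1 with no unit given). The other groups were WT, the unedited line, and KO, of the genotype GATA6-KO made with CRISPR/Cas9. The protocol speaks of clones of the degron line, and the labels do not say how many clones entered, whether KO was 1 clone, or whether replicates were separate cultures. The spread between replicates may therefore be technical. The lists hold no RNA or protein level, so removal of GATA6 itself was not checked by them.

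Nuclear receptors are transcription factors, most of which are switched by small fat-soluble ligands such as steroid and thyroid hormones, retinoic acid, vitamin D, bile acids and fatty acids. Many bind DNA elements built on the core AGGTCA, often in pairs with a retinoid X receptor, and recruit coactivators or corepressors according to the ligand. In the intestine they are known for setting absorption, bile acid return, xenobiotic defence, salt balance and daily rhythm. GATA6 is a zinc-finger factor of the gut epithelium that binds the letters GATA.

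Merging peaks that overlapped or touched over all 10 lists gave 798 regions at the receptors, of 168719 in the genome. Of these, 265 (33.2%) were called in all 10 libraries, against 45254 (26.8%) of all regions, and 176 (22.1%) were called by 1 library, against 25.8%. RORA, a receptor that activates clock-controlled genes, had the most regions with 76, RORB had the fewest with 3, and the median was 16. The RORA window spans 841 kb, beside a median window of 148 kb. Per 100 kb RORA held 9.04 regions and RORB 1.01, beside a median of 8.98 over the receptors. The windows of THRA and NR1D1 overlapped, as did those of NR5A1 and NR6A1, so regions there count under both genes but once in totals. Windows of 7 receptors held no other protein-coding gene, and the median number of other genes was 2.

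The lists of the degron libraries held 154537 to 199036 peaks. Those of WT held 93104 and 66078 and those of KO held 130807 and 116626, in windows of exactly 500 bp. Peaks were also joined into regions, over the 6 degron lists or the 4 WT and KO lists. By regions, degron libraries called 73214 to 95807, WT 90360 and 63870 and KO 129296 and 114999. Of 10 markers of colorectal epithelium, 7 to 9 were called per library at a start window or gene end, and 6 (EPCAM, CDH1, KRT8, KRT18, KRT20 and CDX2) in all 10, while CDH17 was called in none. Blood markers were called at 2 to 3 of 5 genes per library, fibroblast markers at 1 to 4 of 5 and endothelial markers at 0 to 1 of 5. Of the genes that define those cells, PTPRC, LUM, KDR, TEK and VWF were among those called in no library. The blood genes CD3E and SPI1 and the fibroblast gene COL1A1 were called in all 10, PDGFRA in 9 and COL1A2 in 8. The part of such cells in the results was not tested.

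The start of a gene was read in windows from 250 bases before to 50 bases after each start that RefSeq (GRCh38.p14, the assembly behind hg38) lists. Such windows were at hand for 39 receptors, 93 in all. The 4 sequences that follow carry the start peaks that ranked highest in the degron lists among windows called in all 10 libraries. NR3C2 is the mineralocorticoid receptor, which drives sodium uptake in the distal colon. ESR2 is estrogen receptor beta, NR2E3 a photoreceptor-cell receptor and NR1H3 the oxysterol sensor LXR alpha. Each line gives the 250 bases before the start, 5′ to 3′. Capitals mark AGGTCA or a GATA motif, that is GATA with A or T before it and A or G after it, on either strand.
NR3C2: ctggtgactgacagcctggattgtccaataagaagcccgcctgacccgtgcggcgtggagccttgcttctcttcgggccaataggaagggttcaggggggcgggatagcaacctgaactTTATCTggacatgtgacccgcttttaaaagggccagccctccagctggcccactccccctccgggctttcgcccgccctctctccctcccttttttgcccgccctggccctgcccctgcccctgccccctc
ESR2: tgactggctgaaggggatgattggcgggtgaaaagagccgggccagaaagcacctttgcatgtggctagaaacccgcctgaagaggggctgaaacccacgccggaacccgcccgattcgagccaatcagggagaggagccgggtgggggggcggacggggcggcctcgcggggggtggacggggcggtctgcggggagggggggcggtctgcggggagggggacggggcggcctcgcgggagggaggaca
NR2E3: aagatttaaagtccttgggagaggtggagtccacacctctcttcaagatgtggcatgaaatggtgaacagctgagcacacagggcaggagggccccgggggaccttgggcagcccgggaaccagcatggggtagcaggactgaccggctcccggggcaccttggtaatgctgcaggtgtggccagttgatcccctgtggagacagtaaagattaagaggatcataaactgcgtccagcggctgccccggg
NR1H3: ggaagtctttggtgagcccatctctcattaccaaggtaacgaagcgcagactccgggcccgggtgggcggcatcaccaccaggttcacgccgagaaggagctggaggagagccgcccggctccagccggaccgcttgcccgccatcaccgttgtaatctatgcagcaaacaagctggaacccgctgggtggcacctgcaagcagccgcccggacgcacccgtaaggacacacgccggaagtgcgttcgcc
They lie at chr4:148442415-148442664 on the minus strand, chr14:64338614-64338863 on the minus strand, chr15:71810304-71810553 on the plus strand and chr11:47248645-47248894 on the plus strand. Their G and C content was 63.6%, 71.2%, 58.8% and 64.4%. NR3C2 held 1 GATA motif, read as TTATCT from 131 bases before the start, and the other sequences held neither motif.

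The next 3 are shown as contrasts. NR2F1, the orphan receptor COUP-TFI, was the only other receptor window called in all 10 libraries that held a GATA motif. NR5A2, the receptor LRH-1 of liver and gut epithelium, had the most motif matches of any receptor window. That window was called in WT replicate 1 only, but 6 libraries had a peak within 1 kb of an NR5A2 start. A region inside NR5A2 at chr1:200028663-200030197 was called in all 6 degron libraries, with fold enrichments of 8.4 to 11.2. NR3C1, the glucocorticoid receptor, had a start rich in CpG that no library called.
NR2F1: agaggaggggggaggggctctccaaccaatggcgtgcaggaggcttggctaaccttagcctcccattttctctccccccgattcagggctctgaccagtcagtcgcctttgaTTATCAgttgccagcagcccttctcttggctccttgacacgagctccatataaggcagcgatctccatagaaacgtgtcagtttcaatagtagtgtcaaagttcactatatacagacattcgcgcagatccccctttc
NR5A2: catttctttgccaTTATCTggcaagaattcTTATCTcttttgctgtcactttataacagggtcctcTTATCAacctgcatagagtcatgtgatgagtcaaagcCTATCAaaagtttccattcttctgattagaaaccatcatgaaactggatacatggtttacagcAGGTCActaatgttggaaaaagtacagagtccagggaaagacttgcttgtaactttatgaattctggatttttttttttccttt
NR3C1: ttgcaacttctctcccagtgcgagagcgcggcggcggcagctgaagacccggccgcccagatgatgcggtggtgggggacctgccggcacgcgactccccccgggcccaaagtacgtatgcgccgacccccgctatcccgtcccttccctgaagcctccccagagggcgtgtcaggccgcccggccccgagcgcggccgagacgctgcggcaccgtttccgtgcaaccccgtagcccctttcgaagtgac
These lie at chr5:93582972-93583221 on the plus strand, chr1:200027460-200027709 on the plus strand and chr5:143404237-143404486 on the minus strand. NR2F1 held TTATCA from 138 bases before the start. NR5A2 held 4 GATA motifs, from 237, 220, 184 and 147 bases before the start, and 1 AGGTCA from 84 bases before it. NR5A2 held no CpG dinucleotide in these 250 bases, whereas NR3C1 held 30. No match overlapped another in the printed sequences.

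Over all 93 windows of 300 bases, a GATA motif stood in 19 (20.4%), beside 19.97% of the windows of all genes, and AGGTCA in 15 (16.1%), beside 11.9%. Of the 14 receptor windows called in all 10 libraries, 2 held a GATA motif (14.3%, beside 12.3% of all such windows) and 0 held AGGTCA (beside 9.26%). Of the 25 called in 1 to 9 libraries, 5 held a GATA motif (20%, beside 16.9%) and 7 held AGGTCA (28%, beside 11.2%). Of the 54 called in none, 12 held a GATA motif (22.2%, beside 30.2%) and 8 held AGGTCA (14.8%, beside 15.1%). Median G and C content was 64.8% in the windows called in all 10 and 52.3% in those called in none. Over all genes the same medians were 66.0% and 54.3%. These medians are descriptions, since neighbouring windows of 1 gene share sequence.

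Start sites of 13 of the 39 receptors (33.3%) overlapped a peak in all 10 libraries, beside 7349 of 15812 protein-coding genes with a window (46.5%). Those of 12 receptors (30.8%) overlapped a peak in no library, beside 31.5% of genes. Single libraries called 16 to 25 receptors, with 22 to 25 in the degron lists, 20 and 18 in WT and 16 and 18 in KO. These are 56.4% to 64.1% of receptors in the degron lists, beside 63.3% to 64.5% of genes. In WT they are 51.3% and 46.2%, beside 57.5% and 55.1%, and in KO 41.0% and 46.2%, beside 57.1% and 54.8%. All 6 degron libraries called 22 receptors (56.4%), beside 61.9% of genes. The fixed 500-bp windows of WT and KO are narrower than many degron intervals. With a peak allowed within 1 kb of the start, 22 receptors were called in all 10 libraries and 9 in none.

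Receptors for hormones and vitamins were split. Among thyroid hormone and retinoic acid receptors, RARG was called at its start in all 10 libraries and THRB in none. THRA was called in 7, RARA in 9 (at starts well inside the gene) and RARB in AID_ctrl replicate 1 only. Within 1 kb of a start, RARB was called in 9 libraries and THRA and RARA in 10. Among steroid receptors, ESR2 and NR3C2 were called in all 10, whereas ESR1 (estrogen receptor alpha), NR3C1 and PGR (the progesterone receptor) were called in none. NR3C1 has 7 start windows in the table, and all 7 were without a call. At NR3C2 only 1 of 4 windows was called, that 2908 bp inside the outer gene end. Among retinoid X receptors, the shared partners of the others, RXRB was called in all 10, RXRA in 9 and RXRG in none. The start of RXRB lies within 1 kb of that of SLC39A7, and a peak there belongs to both. VDR, the vitamin D receptor, has no window in the table, and a peak lay within 1 kb of its higher-coordinate end in all 10 libraries.

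Sensors of lipids had called starts in most cases. PPARD and both oxysterol receptors, NR1H2 and NR1H3, were called in all 10 libraries. PPARA, a fatty acid receptor of oxidative tissues, was called in 8, and PPARG, which is abundant in colon epithelium, in the 6 degron libraries by window and in all 10 within 1 kb of its outer end. NR1H4, the bile acid receptor FXR, was not called at its listed start, but 9 libraries held a peak within 1 kb of its outer gene end. NR0B2, the bile-acid-induced corepressor SHP, has no window and was called in all 10 at its higher-coordinate end. The xenobiotic sensors NR1I2 (PXR) and NR1I3 (CAR) were called at no start window in any library.

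There were 4 clock receptors, too few to compare by kind. The repressors NR1D1 and NR1D2 were called at their starts in all 10 libraries, while RORA and RORB, which act on the same elements, were called in none. An end of NKIRAS1 lies 441 bp from the NR1D2 start called in all 10. The table holds 1 start for RORA, 601772 bp inside the outer gene end, so other starts of RORA were not read. No library had a peak within 1 kb of the outer end of RORA either. Of the orphan receptors, NR2E3, NR2F1, NR4A3 and NR6A1 were called in all 10. NR2C1 and NR4A1 were called in 9, NR2C2 in 8 and ESRRA in 6, which became 10 within 1 kb of the start. ESRRB was called in 4, and ESRRG, NR2F2 and NR5A2 in 1 each. Within 1 kb of a start, ESRRB was called in 7, ESRRG in 1, NR2F2 in 2 and NR5A2 in 6. NR2F2 had a peak within 1 kb of its outer gene end in 7 libraries. NR2E1 and NR5A1, known from neural stem cells and steroid-making glands, were called in none. NR2F6 and NR4A2, without a window, had a peak at their higher-coordinate end in all 10.

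**Figure D1:**
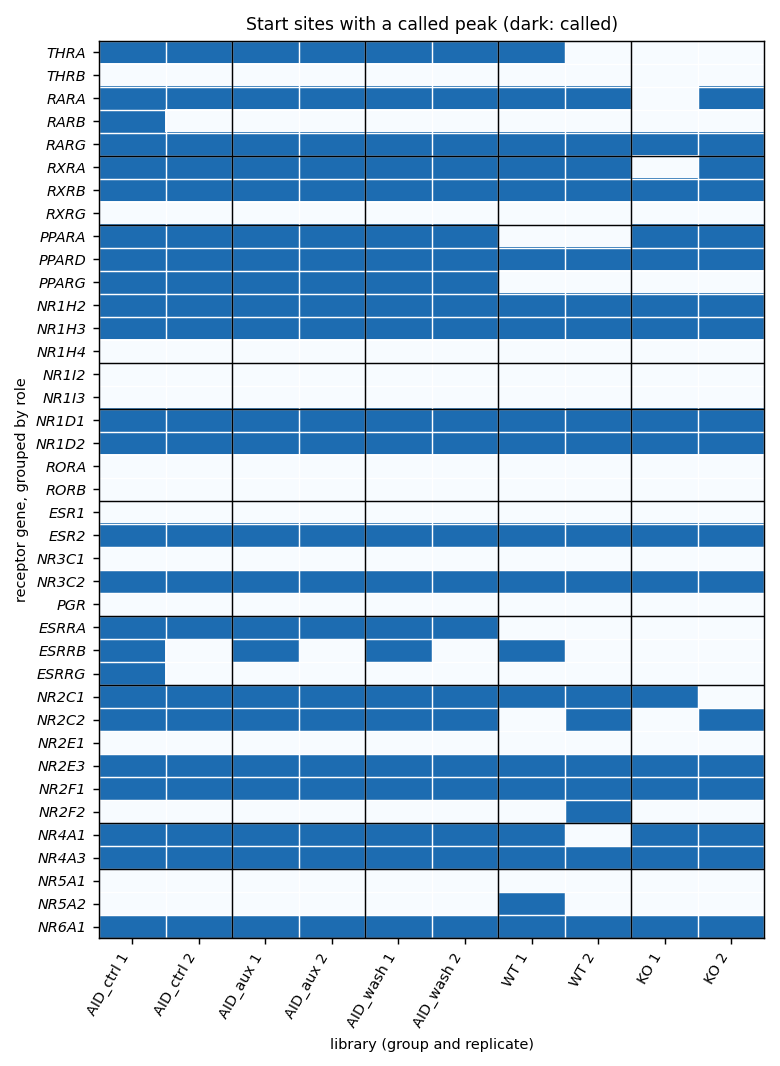
Each row is a receptor gene, grouped by role, and each column 1 of the 10 libraries. A dark cell means that a peak overlapped a RefSeq start window of the gene. The 13 receptors with dark cells throughout and the 12 with none stand apart from those called in some libraries.

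The deposited degron lists give the authors' fold enrichment for each peak, the signal at a peak over its local background, which serves here to describe peaks within a list. The start peak of NR3C2 had values of 16.7 and 13.9 in AID_ctrl, 13.5 and 17.4 in AID_aux and 15.1 and 13.7 in AID_wash. The ranges of the 3 groups overlapped, and the peak stood at the median percentile 99.4 of its lists by −log10 p. For NR2E3 the values were 12.7 and 12.4 in AID_ctrl, 13.7 and 13.0 in AID_aux and 13.5 and 13.5 in AID_wash, a span narrower than that of NR3C2. ESR2 had 11.6 and 11.4 in AID_ctrl, 10.2 and 11.2 in AID_aux and 12.6 and 11.2 in AID_wash. Both AID_aux values of ESR2 lay below both AID_ctrl values, and the nearest pair, 11.4 and 11.2, lay closer together than the AID_aux libraries did. NR1H3 had 16.4 and 15.2, then 17.7 and 16.2, then 14.1 and 17.4 in the same order of groups, and the start of ACP2 lies within 1 kb of its own.

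The other 4 of these start peaks complete the 8 of highest rank called in all 10 libraries. PPARD had 13.1 and 13.9 in AID_ctrl, 14.7 and 13.5 in AID_aux and 12.4 and 11.9 in AID_wash. NR1H2 had 12.7 and 15.8, 17.1 and 14.4, and 10.0 and 13.7 in the same order. NR6A1, a germ cell receptor, kept to 6.9 to 7.7 and RARG to 6.7 to 8.6 over the 6 libraries. AID_aux values lay above those of AID_ctrl for NR2E3 and RARG, below them for ESR2, and overlapped them for the other 5. Each value is relative to its own list, so these orders show no change between groups. The other 5 receptors called throughout, NR1D1, NR1D2, NR2F1, NR4A3 and RXRB, had median percentiles between 69.8 and 87.3.

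**Figure D2:**
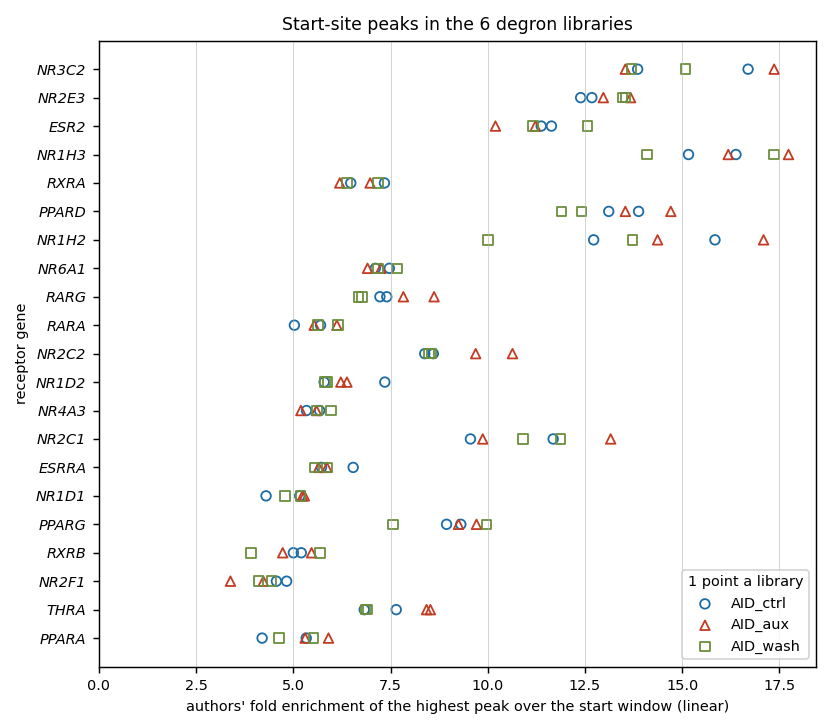
The horizontal axis is the authors' fold enrichment (linear) of the highest peak over a start window, and each row is a receptor whose start window all 6 libraries called, ordered by median percentile. Each point is 1 of the 6 degron libraries, with a symbol per group. NR3C2 and NR1H3 lie farthest right, NR2F1 lowest, and symbols of the 3 groups mix within rows.

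Away from starts, single regions of other receptors ranked as high. A region inside NR1D2 at chr3:23958332-23959915 had fold enrichments of 13.9 to 15.3 over the 6 degron libraries and the median percentile 99.6. One inside PPARA at chr22:46187076-46188805 had 15.6 to 19.2 and the median percentile 99.5. RORA, with no called start, had an intragenic region at chr15:60917367-60919223 with 9.91 to 12.8 and the median percentile 98.3. Over the 340 receptor regions called in all 6 degron libraries, the median fold enrichment was 7.56 to 8.48 per library, beside 7.99 to 9.10 over all such regions.

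The first comparison asked what 12 h of GATA6 degradation did to the receptor loci. A region is called lost where both AID_ctrl libraries and neither AID_aux library had a peak, gained in the reverse case, and retained where all 4 had one. Of 601 receptor regions, the lost class held 13 (2.16%), the gained class 12 (1.997%) and the retained class 371 (61.7%). Genome-wide the classes held 2.36%, 2.58% and 59.6%, so the receptor shares lay near the background. Lost regions lay at 10 receptors and gained ones at 7, and 30 receptors had neither. None had its midpoint within 1 kb of a listed start of a receptor. No test across regions was run, since the lists hold calls and no counts. In bulk libraries a site closed in some cells and one less open in every cell cannot be told apart.

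Of 102 regions of thyroid hormone and retinoic acid receptors 6 were lost, beside 2.36% of all regions. Among the roles this one had the most lost regions, and the others had 0 to 2. THRB and RARB, with windows of 479 and 869 kb, had 3 each. THRA, RARA and RARG, with windows of 132, 148 and 122 kb, had 0. Only 1 lost region was strong, that is in the upper 50% of both calling lists by −log10 p, a class that held 0.165% of all regions. It lies at chr3:25603833-25604584, 5901 bp beyond RARB in the body of TOP2B, the topoisomerase gene next to it. Its fold enrichment was 9.5 and 8.5 in AID_ctrl and 4.6 and 7.7 in AID_wash, and no peak was called in either AID_aux library. The nearest AID_aux peak was 10912 bp away.

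THRB, the thyroid hormone receptor beta gene, had 3 lost regions. That at chr3:24505391-24506505, which is 9683 bp beyond the gene, had 6.2 and 7.6 in AID_ctrl and 5.4 and 6.0 in AID_wash. Further out, chr3:24513444-24514672 had 5.5 and 6.9, then 6.3 and 4.2. Inside the gene, chr3:24375935-24376655 had 7.7 and 4.9, then 4.6 and 6.1. All 3 were called in both AID_wash libraries and in neither AID_aux library, and the AID_wash values overlapped or lay below those of AID_ctrl.

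Inside NR5A2 a region at chr1:200131450-200132116 was lost, with 6.0 and 11.3 in AID_ctrl and 6.3 and 7.1 in AID_wash. One inside PPARG, chr3:12386287-12387090, had 7.3 and 5.7, then 5.0 and 4.5. Inside RARB, chr3:25430538-25431591 had 4.3 and 3.8, then 4.0 and 3.4. The other 6 lost regions lay at RARB again, at NR6A1 within the NR5A1 window, and at RORA, NR2F2, PPARA and NR1I3. Of all 13, those of NR1I3 and the further RARB region were called in neither AID_wash library. At 3 lost regions, those of RORA, NR2F2 and PPARA, an AID_aux peak lay within 1 kb, and the median gap over the 13 was 5115 bp.

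None of the gained regions was strong, beside 0.00866% of all regions, and their lower percentile in the AID_aux lists ran from 0.279 to 43.0. The highest ranked lies inside NR6A1 at chr9:124559813-124560270, with 6.7 and 7.4 in AID_aux and 6.4 in AID_wash replicate 2. Next came chr3:25507522-25508291 inside RARB, with 6.1 and 5.3 in AID_aux and no call elsewhere in the degron line. At chr6:152161601-152162169, 31982 bp beyond ESR1 in the body of SYNE1, the values were 4.7 and 7.0 in AID_aux and 5.1 in AID_wash replicate 2. NR2F2, a mesenchymal and venous orphan receptor, had gained regions at chr15:96341528-96341771 and chr15:96324214-96324907, all with fold enrichments under those of the regions just named. RORA had 4 gained regions, of which the highest ranked is chr15:60885855-60886153 with 4.2 and 4.5. NR1D2, RXRA and RARB held the rest, 1 each. At 3 of the 12 gained regions an AID_ctrl peak lay within 1 kb, and the median gap over the 12 was 7002.5 bp. The gap was 190 bp at the NR2F2 region chr15:96341528-96341771. It was 192 bp at the highest ranked RORA region and 365 bp at the RORA region chr15:61155734-61155990.

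Single libraries moved these counts, since a group of 1 library makes the rule easier to meet. Without AID_ctrl replicate 1 there were 32 lost and 36 gained, and without AID_ctrl replicate 2 there were 37 and 19. Without AID_aux replicate 1 there were 35 and 34, and without AID_aux replicate 2 there were 17 and 65. Over the genome all libraries gave 2729 lost and 2974 gained. In the same order, leaving out 1 library gave 7149 and 6468, 7929 and 5621, 7082 and 7073, and 3965 and 11585. AID_aux replicate 1 had the longest list of the degron line.

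**Figure D3:**
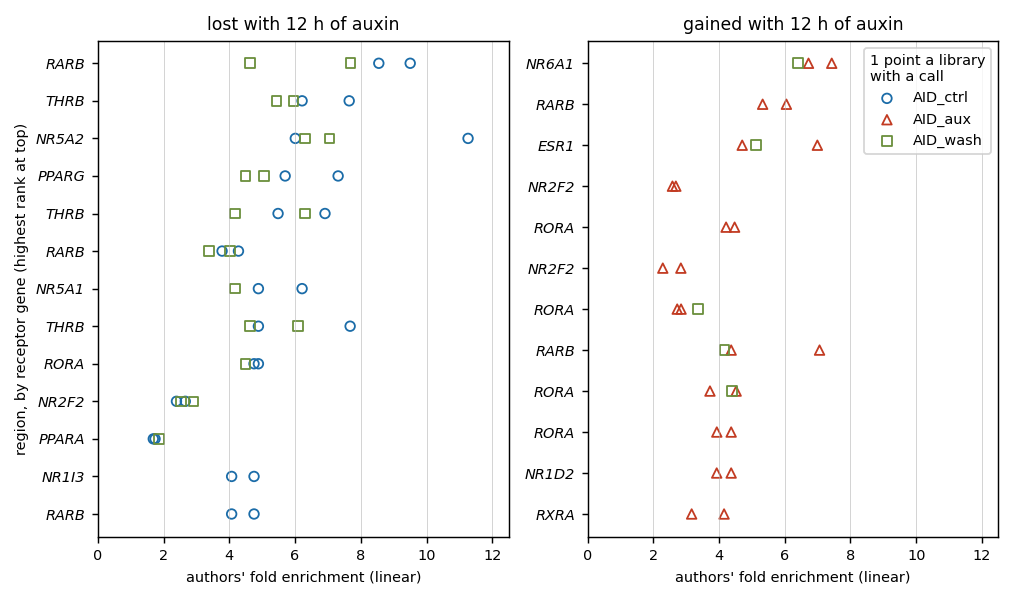
The horizontal axes are the authors' fold enrichment (linear) at the receptor regions lost (left) and gained (right) with 12 h of auxin. Rows are regions, named by receptor and ordered by rank, and each point is a library that called the region. Left-hand rows hold AID_ctrl and mostly also AID_wash points, and only the RARB and NR5A2 rows pass 8.

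After the wash, 8 of the 13 lost regions had a peak in AID_wash replicate 1 and 11 had one in replicate 2, and 8 had one in both (61.5%), beside 32.4% of all regions lost with auxin. Of the 12 gained regions, AID_wash replicate 1 called 0 and replicate 2 called 5, and neither called 7 (58.3%), beside 50.8% of all gained regions. These regions were chosen by their AID_aux calls, and the counts are descriptions. AID_wash replicate 1 had the shortest list of the degron line, and its part in these counts was not tested.

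Against AID_aux, the washed cells had 15 lost regions of 592 (2.53%, beside 3.48% of all), 11 gained (1.86%, beside 1.21%) and 351 retained (59.3%, beside 57.4%). None was strong, beside 0.00892% strong lost and 0.0731% strong gained regions over the genome. NR2F2 and THRB had the most, NR2F2 with 3 lost and 1 gained and THRB with 4 gained. RARB and RORA followed with 3 changed regions each. NR1D2, NR5A2 and PPARG had 1 lost and 1 gained each, and ESR1 had 1 lost. The 15 lost regions lay at 13 receptors and the 11 gained at 7, and 29 receptors had neither.

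By rank the highest gained region was that of NR5A2 at chr1:200131450-200132116, then those of RARB at chr3:25430538-25431591, THRB at chr3:24505391-24506505, NR2F2 at chr15:96326823-96327033, PPARG at chr3:12386287-12387090 and, tied, RARB at chr3:25603833-25604584 and THRB at chr3:24375935-24376655. All of those named also carried peaks in both AID_ctrl libraries. This comparison shares the AID_aux libraries with the one before, so a missing AID_aux call counts in both. Of the 11 gained regions, 8 are the regions lost with auxin that both AID_wash libraries called. The lost region of highest rank lies inside NR6A1 at chr9:124743456-124744065, with 5.4 and 6.6 in AID_aux and 5.5 and 5.3 in AID_ctrl. Inside PPARG, chr3:12410250-12410610 had 4.0 in both AID_aux libraries and 3.1 and 3.4 in AID_ctrl. The next lost regions lay inside RARB at chr3:25507522-25508291, beside NR2F2 at chr15:96341528-96341771, inside RORA at chr15:60885855-60886153 and beside NR2F2 at chr15:96340925-96341338.

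Counts again moved with single libraries. Without AID_aux replicate 1 there were 32 lost and 23 gained, and without AID_aux replicate 2 there were 68 and 14. Without AID_wash replicate 1 there were 19 and 40, and without AID_wash replicate 2 there were 59 and 18. Over the genome all libraries gave 3897 lost and 1356 gained. In the same order, leaving out 1 library gave 8537 and 3998, 13793 and 2072, 5250 and 7458, and 12243 and 2945.

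Against AID_ctrl, whose libraries also served the auxin comparison, the washed cells had 10 lost regions of 560 (1.79%, beside 2.67%), 4 gained (0.714%, beside 0.685%) and 359 retained (64.1%, beside 60%). RARB had 2 lost regions, RORA 1 lost and 1 gained, and NR0B2, NR1H4, NR1I3, NR2F2, NR5A2, NR6A1 and PPARG 1 lost each. The gained ones lay at THRA, THRB, RORA and VDR. None was strong, beside 0.00643% strong lost and 0% strong gained regions over the genome. The lost region beside NR2F2 at chr15:96340925-96341338 had 3.4 and 2.8 in AID_ctrl and 2.4 and 2.9 in AID_aux. That inside NR6A1 at chr9:124743456-124744065 was described above, and that near NR0B2 at chr1:26881549-26881939, in the body of GPN2, had 4.7 and 4.6 in AID_ctrl and 4.8 and 4.3 in AID_aux. Inside NR1H4, chr12:100474673-100475114 had 4.3 and 4.3 in AID_ctrl and 5.4 in AID_aux replicate 1. Lost regions inside PPARG (chr3:12410250-12410610) and RORA (chr15:60905685-60905900) complete the 6 of highest rank. The gained regions were chr12:47870382-47870947 inside VDR, with 5.0 and 4.5 in AID_wash and 5.2 in AID_aux replicate 2, chr17:40019661-40019902 near THRA in the body of MED24, chr15:61167552-61167917 inside RORA and chr3:24376833-24377104 inside THRB. Without AID_ctrl replicate 1 the counts were 26 lost and 14 gained, and without AID_ctrl replicate 2 they were 37 and 8. Without AID_wash replicate 1 they were 15 and 38, and without AID_wash replicate 2 they were 46 and 12. Over the genome all libraries gave 2906 lost and 745 gained. In the same order, leaving out 1 library gave 8507 and 2486, 9507 and 1972, 4157 and 7437, and 10547 and 2365.

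Lasting loss of GATA6 was asked by comparing KO with WT. Of 757 receptor regions, 141 counted as gained (18.6%, beside 19.5% of all regions), 8 as lost (1.06%, beside 1.24%) and 303 as retained (40.0%, beside 31.9%). The gained and lost shares lay near the background. At 28 of the 141 gained regions a WT peak lay within 1 kb, the nearest 3 bp away, and the median gap was 5278 bp. Gained regions lay at 37 receptors and lost ones at 7. NR1D2, RORB, NR1I3, NR2F1, ESRRA and NR4A2 had neither. Both KO lists were longer than both WT lists over the whole genome, so list length and genotype cannot be told apart here, and the lists hold no score by which to equalise them. Over the genome WT called 90360 and 63870 regions and KO 129296 and 114999. Both KO counts lay above both WT counts at 33 of the 43 receptors, and the counts overlapped or touched at the other 10. That order therefore marks no single receptor named below. Without WT replicate 1 there were 243 gained and 43 lost, and without WT replicate 2 there were 143 and 41. Without KO replicate 1 there were 171 and 11, and without KO replicate 2 there were 224 and 9. Over the genome all libraries gave 30771 gained and 1958 lost. In the same order, leaving out 1 library gave 55615 and 10964, 31856 and 11278, 37803 and 2654, and 49575 and 2262.

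RORA, with its window of 841 kb, had the most gained regions. WT called 39 and 27 regions at the gene and KO 61 and 54. Its 67 regions held 19 gained (28.4%, beside 19.5% of all regions), 0 lost and 25 retained. All 19 lay in the gene body, 12.6 to 721 kb from the outer 5′ end with a median of 288 kb.

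**Figure D4:**
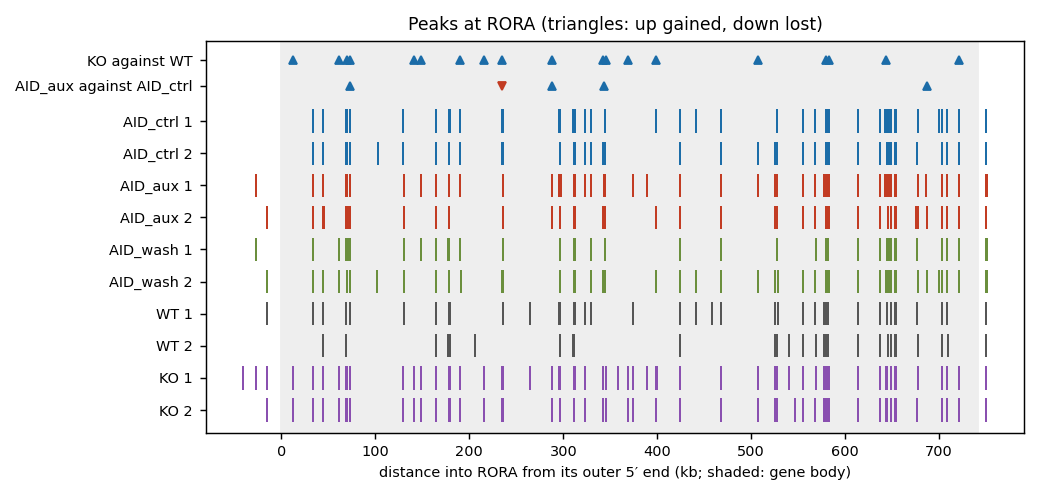
The horizontal axis is the distance into RORA from its outer 5′ end in kb, with the gene body shaded, and each row of ticks is 1 library. Triangles mark lost and gained regions of the auxin and the knockout comparison. The 19 gained regions of KO spread over the gene, and no library has a peak at its outer end.

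RXRA, a shared heterodimer partner, had 10 gained regions of 31, with 14 and 10 called in WT and 25 and 24 in KO. THRB had 9 of 44, with 25 and 20 called in WT and 39 and 35 in KO. RARB had 8 of 37, with 15 and 12 called in WT and 29 and 27 in KO. Of the 144 regions of retinoic acid and thyroid hormone receptors 26 were gained. Steroid receptors had 22 gained of 74 and lipid sensors 15 of 119, beside 18.6% over all receptors and 19.5% of all regions.

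NR3C2 had 7 gained regions of 17, with 6 and 5 called in WT and 15 and 13 in KO, and 5 of the 7 lay inside the gene. Its start peak was called in all 4 libraries. VDR had 6 gained and 2 lost of 30, with 18 and 16 called in WT and 25 and 23 in KO. ESR1 had 6 gained of 30, with 16 and 13 called in WT and 26 and 22 in KO. ESRRB, an orphan receptor of pluripotent cells, had 5 of 14, with 7 and 2 called in WT and 9 and 7 in KO, so its groups touched. By share PGR stood highest with 42.9% of its 7 regions, and the median over the 43 receptors was 18.2%.

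Only 3 gained regions had a midpoint within 1 kb of a receptor start. They lie at chr14:76375349-76375874 in ESRRB, 526 bp from a start, chr9:134326949-134327456 in RXRA, 747 bp from one, and chr9:99822617-99823123 in NR4A3, 985 bp from one. At RXRA the outer start window itself was called in AID_aux replicate 1 and both AID_wash libraries only. Within 1 kb of that outer end, 9 libraries had a peak, all but WT replicate 2.

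The 8 lost regions were scattered. A pair at chr17:40121357-40122059 and chr17:40122816-40123332 counts for both THRA and NR1D1 and lies at MSL1, and KO peaks lie 3 and 59 bp from them. At VDR, chr12:47903842-47904362 lies inside the gene near its higher-coordinate end. Relative to that end, with negative positions inside the gene, WT windows were centred at −903 and −882 bp and again at 111 and 86 bp. KO windows were centred at −142 and −145 bp, and all 6 degron libraries had intervals over the lost region. The other VDR region is chr12:47829003-47829641, 11896 bp beyond the gene. NR6A1 lost chr9:124721040-124721597 inside the gene, and PPARD, NR4A3 and NR2C2 had 1 lost region each outside.

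**Figure D5:**
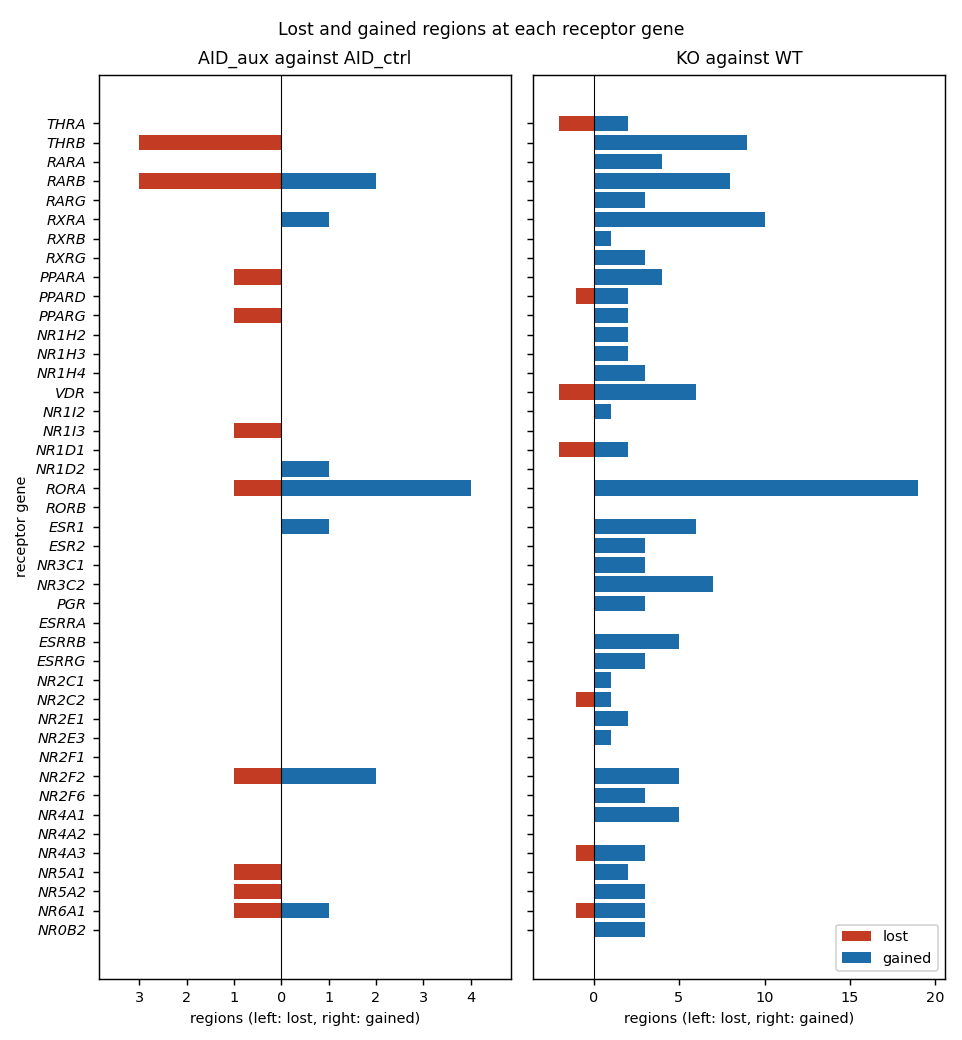
Bars give the number of regions lost (left of 0) and gained (right of 0) at each receptor, for AID_aux against AID_ctrl on the left and KO against WT on the right, on axes of different scale. In the KO panel RORA reaches 19 gained and RXRA 10, whereas no receptor passes 4 in either direction in the auxin panel.

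The degron libraries were set beside the knockout calls over regions merged from all 10 lists. Of 127 receptor regions gained in KO, 8 (6.30%) were called in all 6 degron libraries and 46 (36.2%) in none, beside 9.69% and 42.2% of all gained regions. Of 293 retained regions 265 (90.4%) were called in all 6, beside 90.7% of all retained regions.

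Lost regions of the auxin and the knockout comparison, which share no library, had 0 in common. Merged over all 10 lists, these are 11 and 5 regions. Over the genome 213 were shared, 7.92% of the auxin list and 16.1% of the knockout list. Gained in both were 6 regions, 50% of the 12 of auxin and 4.72% of the 127 of the knockout, beside 37.6% and 3.66% over the genome. They are chr3:25256945-25257457 and chr3:25507522-25508469 in RARB, chr15:60941418-60941969 and chr15:61155587-61156119 in RORA, chr9:134422279-134422858 in RXRA and chr6:152161514-152162169 beyond ESR1 in SYNE1. The RARB regions had 7.1 and 4.4, and 6.1 and 5.3, in AID_aux. In RORA the values were 4.4 and 3.9, and 2.7 and 2.8. The second RORA region had peaks close by in both reference groups. An AID_ctrl peak lay 365 bp from the region gained with auxin. The region gained in KO is centred 73.4 kb into the gene, and WT replicate 1 had a peak centred at 72.8 kb. RXRA had 3.2 and 4.2. Except at 3 of them, where AID_wash replicate 2 had a peak, AID_wash called none.

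Partners of the receptors were read from 3 lists. The 14 coregulators, which link receptors to histone enzymes and the Mediator, had 7 lost and 4 gained of 181 regions with auxin (3.87% and 2.21%, beside 2.36% and 2.58% of all regions). NCOA2, NCOA3 (coactivators) and TBL1XR1 (a corepressor subunit) had 2 lost each, and EP300, an acetyltransferase, had 1 gained. Against AID_ctrl the washed cells had 11 lost of 173 (6.36%, beside 2.67%) and 0 gained (beside 0.685%), with TBL1XR1 at 3 lost and NCOA2, NCOA3 and PPARGC1A at 2 each. Against AID_aux they had 4 lost of 175 (2.29%, beside 3.48%) and 0 gained (beside 1.21%), of which PPARGC1A had 2. In KO the coregulators had 46 gained and 6 lost of 271 (17.0% and 2.21%, beside 19.5% and 1.24%). PPARGC1A, a coactivator of mitochondrial genes, had 10 gained and 1 lost, and NCOA2 and NCOA3 had 6 gained each.

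The 19 genes of ligand supply and clearance had 3 lost and 1 gained of 189 regions with auxin (1.59% and 0.529%, beside 2.36% and 2.58%). CRABP1, which binds retinoic acid in the cytoplasm, had 2 lost, and the retinal oxidase ALDH1A1 had 1 lost. After the wash they had 7 lost and 2 gained of 185 against AID_aux (3.78% and 1.08%, beside 3.48% and 1.21%). Against AID_ctrl they had 7 lost and 1 gained of 181 (3.87% and 0.552%, beside 2.67% and 0.685%). In KO they had 40 gained and 1 lost of 241 (16.6% and 0.415%, beside 19.5% and 1.24%). CYP27B1, which activates vitamin D, had 4 gained, and ALDH1A1, ALDH1A3 and CRABP1 had 3 each.

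The 24 known targets had 5 lost and 8 gained of 283 regions with auxin (1.77% and 2.83%, beside 2.36% and 2.58%). The clock repressor gene PER1 had 2 gained and the sterol exporter ABCG1 1 lost and 1 gained, while ABCB1 and BMAL1 had 1 lost each. Against AID_aux the washed cells had 11 lost and 2 gained of 273 (4.03% and 0.733%, beside 3.48% and 1.21%), with 3 of the lost at SLC51A, a bile acid exporter subunit. Against AID_ctrl they had 9 lost and 2 gained of 274 (3.28% and 0.730%, beside 2.67% and 0.685%). In KO the targets had 61 gained and 7 lost of 359 (17.0% and 1.95%, beside 19.5% and 1.24%). ABCG1 had 5 gained and 1 lost, SGK1, a kinase induced by mineralocorticoids, 5 gained, and CRY1 and MYLIP 3 gained and 2 lost each.

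As a share of all regions that a library called, the receptor windows held 0.532% and 0.512% in AID_ctrl, 0.533% and 0.526% in AID_aux and 0.540% and 0.546% in AID_wash. The share was 0.511% and 0.557% in WT and 0.500% and 0.507% in KO. The AID_aux and AID_ctrl values overlapped. Both AID_wash values lay above all 4 others of the degron line, and both KO values lay below both WT values. Two-sided exact permutation tests over libraries gave p = 0.667 for AID_aux against AID_ctrl and 0.333 for each of the other 3 comparisons. Adjusted over the 4 by Benjamini-Hochberg the exact p was 0.667 and 0.444, and 2 against 2 libraries cannot give a p below 0.333.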

How the data were processed

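ATAC-seq peak lists of 10 DLD-1 libraries were used, 1 list per library. Per the submitters' processing notes, the tools were MACS2 2.1.1, Bowtie2 2.4.2, Trim Galore 0.6.10 and Picard, with the build hg38, and no parameter is stated. In each of the 6 degron lists the authors deposited, per peak, a score, a fold enrichment ratio and −log10 p and q values, which served only to rank or filter peaks of that list. The WT and KO lists give coordinates only. The lists hold no read counts, so depth is unknown and no interval is given.

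Peaks of the 22 autosomes and X were joined where they overlapped or touched, over the 6 degron lists, the 4 WT and KO lists or all 10, and 1 bp of overlap counted as a call. Gene bodies and start windows came from RefSeq GRCh38.p14. Start windows were read in 39 of the 43 receptors. Members and lists were chosen with earlier results of these data known. Genes were named by a written rule: the 8 start peaks of highest median percentile among those called in all 10 libraries, up to 8 members with the most lost plus gained regions per comparison, up to 6 lost and 6 gained regions per degron comparison by rank, all strong regions and those changed in both auxin and knockout, and up to 4 genes per pathway list. Python 3.11.15, numpy 2.4.6, pandas 2.3.3, scipy 1.17.1 and matplotlib 3.10.9 were used. Alternatives were other windows, overlaps, thresholds, list lengths and peak widths, and leaving out each library. A few genes of the marker and pathway lists are not reported here by name.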

Additional observations from a re-analysis of the deposited data

Results flagged for a closer look

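At 2 receptor regions the auxin and the knockout comparison went opposite ways, with every library of each group on its side, and the difference between the comparisons was not tested. Inside THRB, the region at chr3:24375935-24376655 had a peak in both AID_ctrl libraries and both KO libraries and in no AID_aux or WT library. Both AID_wash libraries also called it. Inside RORA, the region at chr15:60993899-60994399 had a peak in both AID_ctrl and both KO libraries and in no AID_aux or WT library, and of the washed libraries only replicate 2 called it. An AID_aux replicate 1 peak lay 399 bp from the AID_ctrl region there, and a WT replicate 1 peak lay 520 bp from the KO region. Over the genome 396 regions were lost with auxin and gained in KO, 14.7% of the auxin list and 1.32% of the knockout list, beside 18.2% and 1.57% at the receptors.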

How the results depend on the processing

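The counts are calls from lists without read counts, in which a peak just under the threshold and an absent one look alike. For the region counts no paired fit exists, since they come from no test. The share of called regions in receptor windows was also tested with the replicate number as a block, an alternative chosen after seeing the data, by an exact sign-flip test over 2 pairs. The labels share only a number, and nothing in them ties same-numbered libraries together. The mean pair difference equals the difference of group means by construction, so the block could not change it. In percentage points it was 0.00732 for AID_aux against AID_ctrl and 0.0133 for AID_wash against AID_aux. It was 0.0206 for AID_wash against AID_ctrl and -0.0310 for KO against WT. Each exact sign-flip test gave p = 0.5, the smallest that 2 pairs can give. Of the values recomputed for the main results 78 stayed within 1.5 times, or kept their sign, and 43 moved beyond that. The 78 include the block values of the 4 comparisons, which could not differ. A count cannot change sign, but the balance of lost and gained turned in the degron line. In AID_wash against AID_aux, 15 lost and 11 gained became 19 and 40 without AID_wash replicate 1 and 13 and 15 with lists of equal length. With auxin, 13 and 12 became 32 and 36 without AID_ctrl replicate 1 and 17 and 65 without AID_aux replicate 2. In AID_wash against AID_ctrl, 10 and 4 became 15 and 38 without AID_wash replicate 1.

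With gene bodies only, regions lost fell to 8 in AID_wash against AID_aux and 2 in KO, KO gained to 82, and strong lost with auxin to 0. With 10 kb beside either end KO lost was 3. In another setting a library's peaks had to cover 50% or more of a region. Lost counts were then 20 with auxin, 26 in AID_wash against AID_aux, 20 in AID_wash against AID_ctrl and 14 in KO. Strong lost was 3, and regions called in all 10 libraries were 51 rather than 265. Over the genome the same counts were 4496, 5472, 4949, 2469 and 965, and 7575 rather than 45254. Strong lost was 0 for the upper 30% and 4 for the upper 70%, beside 41 and 627 over the genome. With lists cut to equal length 21 regions were lost and 9 gained with auxin, and 2 of the lost were strong. Over the genome lost regions then went from 2729 to 2559, gained from 2974 to 2294 and strong lost from 191 to 371. Within 1 kb of a start 22 receptors were called in all 10 libraries, a count not made over all genes. Fewer bases and stricter ranks change these counts by construction, while shorter lists can move them either way.

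Leaving out 1 library gave 17 to 37 lost and 19 to 65 gained with auxin, 19 to 68 and 14 to 40 in AID_wash against AID_aux, 15 to 46 and 8 to 38 in AID_wash against AID_ctrl, and 9 to 43 and 143 to 243 in KO. It gave 1 to 2 strong lost regions, 13 to 15 receptors with starts called in all remaining libraries and 265 to 323 regions called in all remaining libraries, the highest without WT replicate 2.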
